A study of Mus musculus with 6 samples.

Results

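The arrays of this series hold 65956 transcript clusters, and 2168 of them carry 2 or more different gene symbols in the annotation of the array, so that no single symbol stands for them. A transcript cluster is the set of probes that the array summarises as 1 expression value. All 2168 were kept whatever their level. Lung fibroblasts with deleted Atf4 (LFBD/D) were compared with lung fibroblasts carrying wild-type Atf4 (LFBwt/wt), with 3 arrays in each group and passage 2 cells throughout. The mice were young adults of both sexes, lung tissue of several animals was digested together with collagenase, and the cells that grew out were cultured without a sort. Per the study's methods, the deletion was made by a tamoxifen-inducible Cre expressed from the Rosa26 locus acting on floxed Atf4 exons, the Cre therefore not being limited to fibroblasts, and hydroxytamoxifen was in the medium of both groups. The replicates are labelled as biological, but nothing says that each came from its own pool of animals, so the p-values below measure the spread between these cultures.

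ATF4 is a transcription factor whose translation increases when cells lack amino acids or fold proteins poorly, and it is known for activating genes of amino acid synthesis, amino acid transport and tRNA charging. An array names several genes for 1 cluster in a few recurring situations. A microRNA hairpin can lie inside a longer host RNA, so that the probes of the host carry both names. Genes can overlap or lie so close that their transcripts run into each other. Families of recent duplicates, such as the receptors of myeloid cells, MHC class I genes and zinc finger genes, share so much sequence that the same probes read several of them, and processed pseudogenes carry the sequence of a parent gene on another chromosome. A reading of a cluster with several genes belongs to them together, and which of them moved cannot be told apart from it.

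Of 4128 symbols listed by these clusters, 4106 were matched to a RefSeq gene. After older symbols had been brought up to date, 1522 of the 2168 clusters named several different genes, and the remaining 646 named 1 gene under several names, such as Spi1 and its older symbol Sfpi1. Most clusters (1601) listed 2 symbols, 291 listed 3 and 276 listed 4 or more, with 15 symbols at most. The clusters are not independent readings of separate genes, because 750 of them shared a gene with another member and 203 had values identical to those of another member on all 6 arrays.

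When clusters were classed by their listed symbols, microRNAs formed the largest class (541 clusters). The clusters that changed listed 57 microRNA genes. A mature sequence from RefSeq (GRCm38.p6) was used for 51 of them. The mature forms below are those of the clusters described in the following paragraphs, with the seed (bases 2 to 8, the part that pairs with target RNAs) in capitals and the strand after the position. Where a cluster lists a host RNA, its reading covers the host and its hairpin genes together. Mir300/mmu-mir-300 and Mir7027/mmu-mir-7027 each name 1 microRNA gene under different names and list no host. No level of a mature microRNA was taken from either kind of cluster.
miR-223-3p: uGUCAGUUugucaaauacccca, chrX:96242884-96242905, plus strand, the myeloid microRNA in the cluster with the largest rise.
miR-322-5p: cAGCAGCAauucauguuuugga, chrX:53054306-53054327, minus strand, shown with the next 2 because 1 cluster lists all of them.
miR-503-5p: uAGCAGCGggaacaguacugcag, chrX:53054027-53054049, minus strand.
miR-351-5p: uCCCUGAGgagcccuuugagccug, chrX:53053315-53053338, minus strand.
miR-125a-5p: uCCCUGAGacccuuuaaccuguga, chr17:17830817-17830840, plus strand, shown because its seed is that of miR-351-5p.
miR-214-3p: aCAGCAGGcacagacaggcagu, chr1:162223438-162223459, plus strand, from the host Dnm3os, as are the next 2.
miR-199a-5p: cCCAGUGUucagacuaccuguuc, chr1:162217844-162217866, plus strand.
miR-199a-3p: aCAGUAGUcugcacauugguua, chr1:162217883-162217904, plus strand.
miR-770-5p: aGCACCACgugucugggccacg, chr12:109563710-109563731, plus strand, from the imprinted Dlk1-Dio3 domain, as are the next 4.
miR-1906: uGCAGCAGccugaggcagggcu, chr12:109544588-109544609, plus strand, and the same letters at chrX:88759485-88759506, minus strand.
miR-300-3p: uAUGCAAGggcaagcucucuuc, chr12:109724363-109724384, plus strand.
miR-134-5p: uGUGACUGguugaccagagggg, chr12:109734145-109734166, plus strand.
miR-410-3p: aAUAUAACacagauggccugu, chr12:109743764-109743784, plus strand.
miR-26a-5p: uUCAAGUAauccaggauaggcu, chr10:126995543-126995564, plus strand, from a small fall that depended on single arrays, as is the next.
miR-22-3p: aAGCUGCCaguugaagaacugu, chr11:75463772-75463793, plus strand.
miR-7010-5p: cGGAAAGGauugggaaacuuga, chr3:82106284-82106305, minus strand, shown with the next because they share a seed.
miR-7027-5p: uGGAAAGGaagaaacagcagagc, chr5:114404473-114404495, plus strand.
Among the 84 mature sequences used from the clusters that changed there were 82 different seeds, and the shared ones were CCCUGAG and GGAAAGG. The sequences of Mir145a/Mir145 and Arap3/Mir6981, which also changed, were not among them.

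The deposited values are log2 expression, so a difference of 1 is a change of 2-fold. Array medians lay between 4.87 and 4.91, arrays of one group correlated at 0.997 to 0.998 and arrays of different groups at 0.988 to 0.993, and 387 clusters were above 16 on every array, so that levels are comparable between arrays for 1 cluster but not between genes. Atf4 itself, read by a cluster of its own, was 8.67, 8.95 and 8.73 in LFBwt/wt and 7.73, 7.49 and 7.48 in LFBD/D, a fall by 1.22 on the log2 scale (adjusted p = 0.000497). Markers of leukocytes (21 of 24 measured), of mesothelium and, in part, of fibroblasts also moved with the groups, and their values stand beside the results below.

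Of the 2168 clusters, 63 were higher and 59 lower in LFBD/D at an adjusted p of 0.05 or less and a change above 1.5-fold (limma's moderated test over all 65956 clusters, Benjamini-Hochberg adjustment), and 2046 did not pass. This was 5.63% of the members, against 4.85% of all clusters on the array (2.28% higher and 2.57% lower), 6.83% of the rows with 1 symbol and 2.97% of those with none. Level bears on this comparison, because no member below the median level of all clusters passed, and among clusters at or above that median, fitted alone, 9.26% of 1318 members passed against 9.72% of all. The median log2 difference was 0.02 over the members and 0.00 over all clusters. In 747 members (34.5%) the 3 values of one group lay wholly above those of the other, as in 30.1% of all clusters, and this held for every one of the 122 that passed. A further 230 members had an adjusted p of 0.05 or less but stayed within 1.5-fold. The rises were larger than the falls at the top end, with 12 rises and 3 falls above 4-fold.

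**Figure D1:**
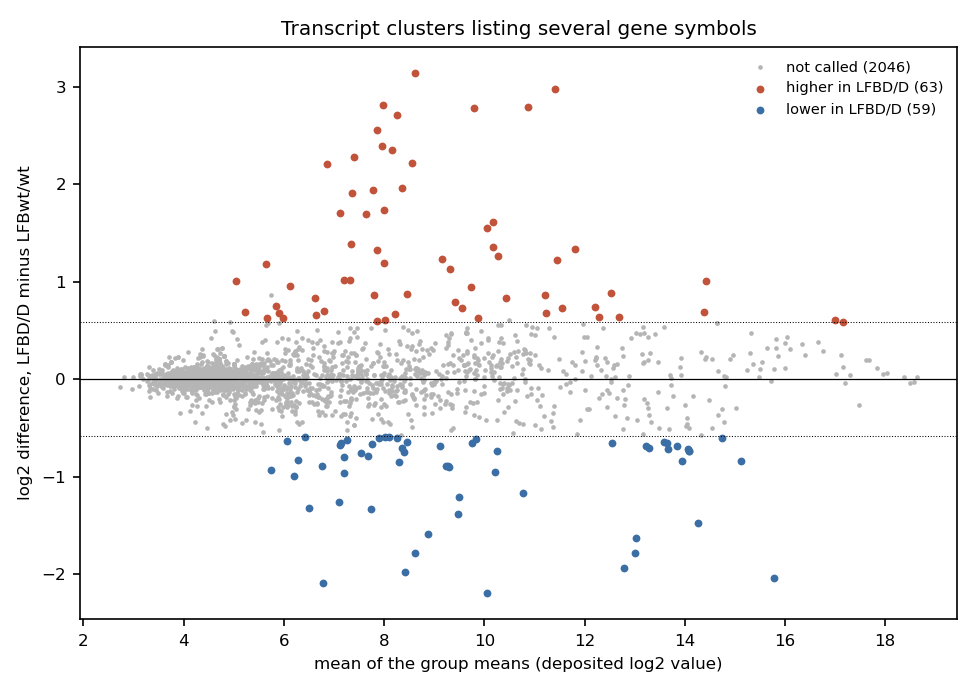
Log2 difference (LFBD/D minus LFBwt/wt, vertical axis) against the mean deposited log2 value (horizontal axis) of the 2168 clusters that list several symbols, 1 point per cluster, with dotted lines at 1.5-fold. The 63 higher clusters reach 3.14 and the 59 lower ones -2.19, and 2046 clusters in grey did not pass.

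The share that passed ranged widely between kinds of cluster, and these shares are descriptions set beside the 4.85% of all clusters. Clusters with an RNA gene classed as small and another gene passed in 38 of 287 (13.2%, 18 higher and 20 lower). They also had a higher median level (8.02) than all clusters (4.9). This class is broader than microRNAs, because it took in antisense and miscellaneous RNA genes. D830014E11Rik/Lrrc8d and Gm14295/Gm14419/Gm2004 were among the 287, although none of their symbols names a microRNA. Clusters of overlapping genes passed in 40 of 378 (10.6%). Clusters that list at least 2 protein-coding genes passed in 41 of 806 (5.09%). The 21 that list only RNA genes classed as small passed in 0, a number too small to set against 4.85%. Where the listed genes lie on more than 1 chromosome, as with a gene and its processed pseudogenes, 9 clusters of 209 were higher and 1 was lower (4.78% in all). Of the families, 7 of 32 clusters of leukocyte receptors and chemokines and 4 of 9 MHC clusters were higher and none was lower, whereas 4 of 31 zinc finger clusters were lower and none was higher. These counts come from few groups of related genes. The 7 were 3 Pira and Pirb, 2 Sirpb1 and 2 Cd300ld clusters, and 3 of the 4 MHC clusters list H2-Q genes. All 4 zinc finger clusters list Zfp971. No cluster passed among 92 of olfactory, vomeronasal and other chemoreceptor genes, 51 of histones, 46 of ribosomal proteins and 14 of keratins and their associated proteins. The keratin class is too small to set against 4.85%, as the 21 above were, and classes of 46 or 51 give only a weak reading of a 0. The chemoreceptor and keratin clusters were mostly dim, 79 of 92 and 8 of 14 being below the median level, against 11 of the histone and 0 of the ribosomal protein clusters.

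**Figure D2:**
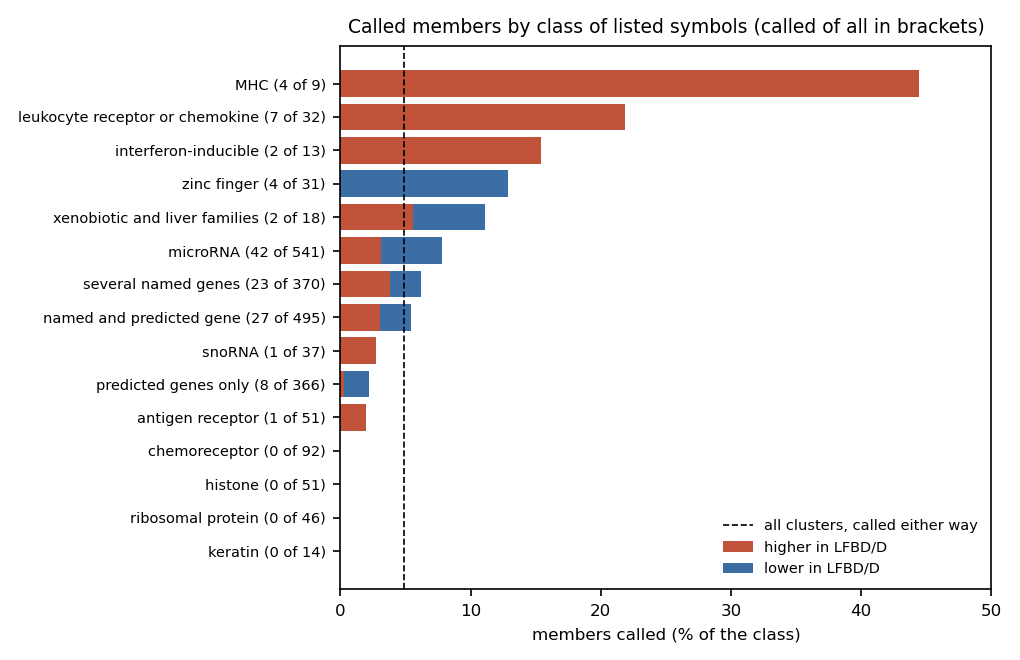
Share of clusters that passed, in percent of each class (horizontal axis), by class of listed genes (vertical axis), with higher and lower clusters in separate colours, the numbers that passed (called) of all in brackets, a dashed line at the 4.85% of all clusters, and the class of 2 protocadherin clusters not drawn. The leukocyte receptor and MHC classes hold only rises among those that passed, the zinc finger class only falls, and the microRNA class both (17 higher and 25 lower of 541).

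The largest rise was that of the cluster listing Mir223 and its host RNA F630028O10Rik, miR-223 being a microRNA of myeloid cells. It read 7.16, 6.85 and 7.12 in LFBwt/wt and 10.78, 9.66 and 10.11 in LFBD/D. Every LFBD/D array lay above every LFBwt/wt array, and the log2 difference was 3.14 (SE 0.26, 8.83-fold, adjusted p = 0.000466). The paired immunoglobulin-like receptors Pira and Pirb, which activate and inhibit myeloid and B cells, were read by 3 clusters. Pira1/Pira2 read 10.58, 9.67 and 9.50 in LFBwt/wt and 12.90, 12.94 and 12.85 in LFBD/D, a log2 difference of 2.98 (SE 0.25, adjusted p = 0.000546). Gm15448/Pirb read 8.92, 8.22 and 8.10 in LFBwt/wt and 11.22, 11.29 and 11.06 in LFBD/D, a log2 difference of 2.78 (SE 0.20, adjusted p = 0.000339). In both clusters LFBwt/wt array 1 was the highest of its group, and the groups did not overlap. The third, Gm14548/Pira2/Pira1, rose 6.95-fold (adjusted p = 0.00046). It shares genes with the first, so that these clusters are not separate readings of separate receptors, but Pirb also had a cluster of its own, which rose by 2.91 (adjusted p = 0.000339).

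All clusters with several symbols that list a Sirpb1 or a Cd300 gene rose as well. Of the 9 Cd300 clusters with 1 symbol, 6 were higher, none was lower and 3 did not pass. The signal regulatory proteins of the Sirpb1 family, which pair with an activating adaptor on myeloid cells, were read by Sirpb1a/Sirpb1c and Sirpb1a/Sirpb1b. The first read 7.53, 6.66 and 6.53 in LFBwt/wt and 9.48, 9.49 and 9.90 in LFBD/D (6.57-fold, adjusted p = 0.000839), and the second rose 5.88-fold (adjusted p = 0.000709). LFBwt/wt array 1 was again the highest of its group, and all LFBD/D arrays lay above it. Both clusters that list the Cd300ld genes, a family of myeloid surface receptors, rose. Cd300ld4/Cd300ld5/Cd300ld3 read 6.27, 5.94 and 6.58 in LFBwt/wt and 8.36, 8.72 and 8.56 in LFBD/D (4.86-fold, adjusted p = 0.00033), and the same symbols in the order Cd300ld5/Cd300ld3/Cd300ld4 named a cluster that rose 3.34-fold (adjusted p = 0.00037). None of the 19 clusters listing a Ccl chemokine (15 different sets of values) and none of the 4 listing a killer cell lectin-like receptor (Klr) passed. The Ccl clusters had a median level of 4.71 and the Klr clusters lay at 4.25 to 4.77, against a median of 4.9 for all clusters. No member below that median passed, so these counts say little about the families. Genes of these families with a cluster of their own did rise, 8 of 21 for Ccl and 3 of 25 for Klr, and none fell.

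**Figure D3:**
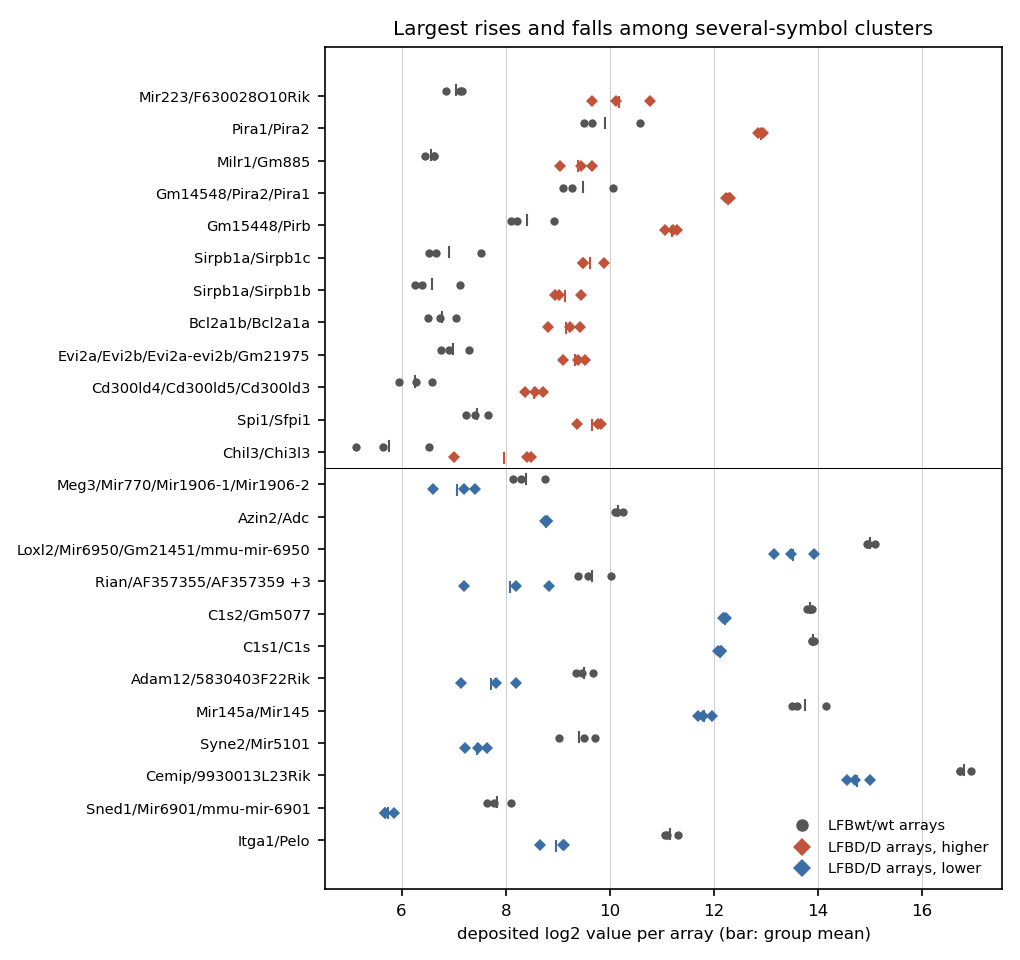
Deposited log2 values of the 24 clusters with the largest rises and falls, 1 point per array, with LFBwt/wt as circles, LFBD/D as diamonds and a bar at each group mean. In each cluster the 3 points of one group lie apart from those of the other, most narrowly in Chil3/Chi3l3 and Rian.

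Other genes known from blood cells were among the largest rises too. Milr1/Gm885, 1 gene under different names that encodes an inhibitory receptor of mast cells, read 6.62, 6.61 and 6.46 in LFBwt/wt and 9.45, 9.04 and 9.65 in LFBD/D (7.03-fold, adjusted p = 0.000127). Spi1/Sfpi1, the transcription factor PU.1 that directs myeloid development, read 7.66, 7.25 and 7.41 in LFBwt/wt and 9.77, 9.38 and 9.84 in LFBD/D (4.67-fold, adjusted p = 0.000258). The spread within each group was well under the distance between them in both. Of the 27 genes of a list of leukocyte markers, Spi1 and Cd74 were the ones listed by a cluster of this kind. Cd74/Mir5107 did not pass. Bcl2a1b/Bcl2a1a, anti-apoptotic relatives of Bcl-2 in blood cells, read 7.05, 6.74 and 6.51 in LFBwt/wt and 9.24, 8.81 and 9.44 in LFBD/D (5.27-fold, adjusted p = 0.000407), and the own cluster of Bcl2a1a rose by 2.98 on the log2 scale. Evi2a/Evi2b/Evi2a-evi2b/Gm21975, a group of overlapping genes in an intron of Nf1, rose 5.09-fold, with 7.30, 6.91 and 6.76 in LFBwt/wt and 9.53, 9.09 and 9.39 in LFBD/D (adjusted p = 0.000267). Fyb/Gm7666, an adaptor of T cells and myeloid cells, had nearly the same value on the LFBwt/wt arrays (6.79, 6.84 and 6.83) and rose to 9.01, 8.68 and 8.58 (3.84-fold, adjusted p = 0.000152). Chil3/Chi3l3, a chitinase-like protein that macrophages secrete, was the most variable of the large rises. It read 6.53, 5.64 and 5.12 in LFBwt/wt and 8.42, 7.0 and 8.49 in LFBD/D (4.61-fold, adjusted p = 0.0227), LFBD/D array 2 being 0.47 above the highest LFBwt/wt array. It no longer passed without LFBwt/wt array 2, LFBwt/wt array 3, LFBD/D array 1 or LFBD/D array 3 (adjusted p up to 0.0807).

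Marker genes of leukocytes with clusters of their own moved in the same direction. Of the 24 measured, 21 were higher and none was lower in LFBD/D, with a median log2 difference of 2.65, and the log2 of their summed level was 17.30 to 17.96 in LFBwt/wt and 19.50 to 19.81 in LFBD/D, again with LFBwt/wt array 1 the highest of its group. The 3 that did not pass were Cd3e (log2 difference -0.14), Cx3cr1 (0.18) and Cd163 (0.11), and Cd3e was the list's gene below the median of all clusters on every array. All 12 mesothelial markers passed, 11 of them lower (log2 of the summed level 15.10 to 15.60 against 10.34 to 11.46). Of the 14 measured fibroblast markers 6 were lower and none was higher (19.60 to 19.72 against 18.99 to 19.01). Among those that did not pass, Pdpn (log2 difference 0.41, adjusted p = 0.021) and Vim (0.21, adjusted p = 0.0345) were above zero, within 1.5-fold. Dcn was also above zero (0.18, adjusted p = 0.0867), whereas Fap, Fn1, Lum, S100a4 and Postn were below zero. Of 9 endothelial markers 3 were higher, Emcn (1.86), Pecam1 (0.62) and Vwf (0.59), and the summed level was 13.39 to 13.47 in LFBwt/wt and 13.56 to 13.94 in LFBD/D. Of 10 epithelial markers Cdh1 was higher (1.12), with summed levels of 8.18 to 8.25 and 8.33 to 8.47. In bulk RNA, more cells of a type and more RNA per cell cannot be told apart, and the part of these shifts in the rises and falls of the clusters described here was not tested.

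Genes of antigen presentation formed the next group of rises. All 9 MHC clusters had a log2 difference above zero and 4 passed. H2-Q8/H2-Q6, which encode MHC class I heavy chains of the Q region, read 7.47, 7.16 and 6.93 in LFBwt/wt and 8.59, 8.47 and 8.47 in LFBD/D (2.51-fold, adjusted p = 0.000898). H2-Q5/H2-Q7 rose 2.28-fold (adjusted p = 0.000373) and H2-Q7/H2-Q9 2.02-fold (adjusted p = 0.000436). The Q genes thus shared the direction, and they share sequence as well, so that it is not known how many of them rose. H2-T23/H2-T-ps, with the gene of the class I molecule Qa-1, read 7.92, 7.92 and 7.82 against 8.91, 8.40 and 8.37 (1.59-fold, adjusted p = 0.0204). It rested on LFBD/D array 1 more than on the others, and no longer passed without that array or without any one of the LFBwt/wt arrays (adjusted p up to 0.0748). Psme2b/Psme2/Psme2b-ps, with the activator subunit PA28 beta of the immunoproteasome, read 10.80, 11.40 and 11.21 in LFBwt/wt and 12.46, 12.41 and 12.55 in LFBD/D (2.53-fold, adjusted p = 0.0013). Nlrc5/Mir7072/mmu-mir-7072, a cluster with the transactivator of MHC class I genes, was low and rose 1.6-fold (adjusted p = 0.00901), a call that was lost without LFBD/D array 1 (log2 difference 0.54). Psme2, Nlrc5, H2-T23 and the second Cd300ld cluster were singled out after their values had been seen, as were the further clusters of the next paragraphs that are not among the largest changes or the leading clusters of a class.

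Of 13 clusters listing interferon-inducible genes, 2 rose. Gm4070/Gvin1/Gm17757/Gm18853, very large interferon-inducible GTPases, read 9.98, 10.14 and 9.93 in LFBwt/wt and 10.72, 10.82 and 10.99 in LFBD/D (1.78-fold, adjusted p = 0.00133), and the own cluster of Gvin1 rose by 0.94. Ifi203/LOC100862473/Ifi203-ps, nuclear DNA-binding proteins of the interferon response, read 7.73, 7.84 and 7.61 against 8.38, 8.42 and 8.19 (1.52-fold, adjusted p = 0.0044). Being close to the fold threshold, the latter lost its call without LFBwt/wt array 3, LFBD/D array 1 or LFBD/D array 2, where the log2 difference was 0.55 at the lowest. The predicted genes 9930111J21Rik1/9930111J21Rik2 read 9.09, 9.44 and 9.31 in LFBwt/wt and 10.95, 10.64 and 10.89 in LFBD/D (2.93-fold, adjusted p = 0.000346), and 9930111J21Rik2 alone rose by 1.57. Gzmd/Gzme, granzymes known from cytotoxic lymphocytes, rose 2.56-fold (adjusted p = 0.00696), with 9.89, 9.26 and 9.36 in LFBwt/wt against 11.27, 10.64 and 10.66 in LFBD/D. Of the 51 antigen receptor clusters, Trav14d-3-dv8/Trav14-3/TCRA was the one that passed. Its values were low (5.26, 5.28 and 5.50 against 6.21, 5.89 and 5.83, adjusted p = 0.0107), and it no longer passed without LFBD/D array 1 (log2 difference 0.52).

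**Figure D4:**
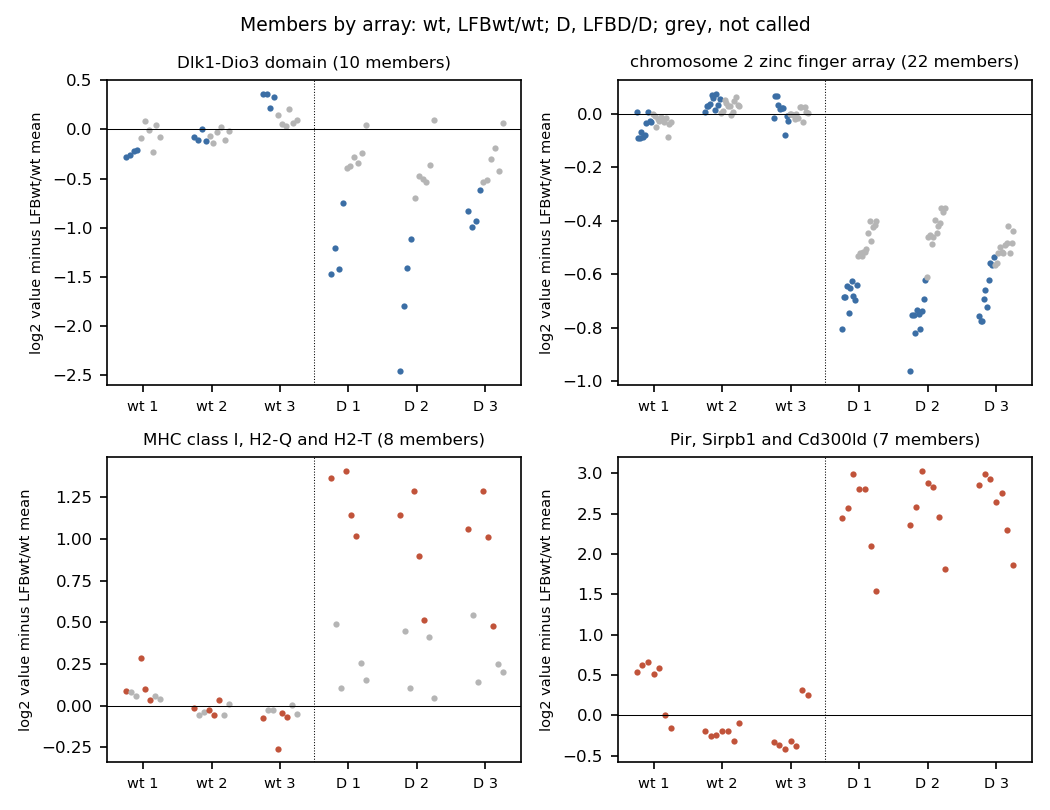
Log2 value minus the LFBwt/wt mean of the same cluster (vertical axis) on each of the 6 arrays (horizontal axis) for the clusters of 4 families, 1 point per cluster, with coloured points for clusters that passed and grey points for those that did not. The Pir, Sirpb1 and Cd300ld clusters lie above 1.5 on all LFBD/D arrays, and the 22 zinc finger clusters lie below zero on all of them.

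Several clusters that list a protein-coding gene with a microRNA also rose. Kctd12/Mir5130 rose 3.90-fold (7.50, 7.32 and 7.29 against 9.49, 8.90 and 9.60, adjusted p = 0.000624), and Arrb2/Mir7115/mmu-mir-7115, with the receptor-desensitising beta-arrestin 2, rose 3.76-fold (6.32, 6.34 and 6.57 against 8.82, 7.95 and 8.20, adjusted p = 0.00137). P2rx7/mmu-mir-8115, with an ATP-gated ion channel of macrophages, read 9.55, 9.38 and 9.19 in LFBwt/wt and 11.34, 10.73 and 10.89 in LFBD/D (3.07-fold, adjusted p = 0.00101). The own cluster of Mir8115 did not pass (log2 difference -0.60, adjusted p = 0.0606). AA467197/Mir147 rose 3.24-fold with a wide spread in LFBD/D (6.92, 6.78 and 6.70 against 8.36, 7.89 and 9.23, adjusted p = 0.0104). Ccnd1/Mir3962, with cyclin D1 of the G1 phase and a microRNA of another chromosome, read 8.76, 8.48 and 8.37 in LFBwt/wt and 9.94, 9.27 and 10.11 in LFBD/D (2.36-fold, adjusted p = 0.00968). The own cluster of Mir3962 did not pass (log2 difference 0.00, adjusted p = 0.986). It read 3.60 in both groups, below the median of 4.9 under which no member passed, so it is no contrast to this rise. In these 2 pairs the cluster of the microRNA alone lies on another chromosome than that of the pair. That of Mir3962 lies on chromosome 1, as the microRNA gene does, whereas that of Mir8115 may read another RNA. Fxyd5/Mir7050/mmu-mir-7050, with a regulator of the sodium pump, rose 2.4-fold (adjusted p = 0.000181).

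The 3 largest falls were those of Itga1/Pelo, Sned1/Mir6901/mmu-mir-6901 and Cemip/9930013L23Rik. Itga1/Pelo pairs the alpha 1 chain of a collagen-binding integrin with Pelo, a ribosome rescue factor whose gene lies within Itga1. It read 11.06, 11.10 and 11.31 in LFBwt/wt and 8.67, 9.13 and 9.09 in LFBD/D, and all LFBD/D arrays were at least 1.94 below the lowest LFBwt/wt array (log2 difference -2.19, SE 0.13, 4.58-fold, adjusted p = 0.000182). Sned1/Mir6901/mmu-mir-6901, with a secreted matrix glycoprotein, read 7.77, 7.64 and 8.10 against 5.68, 5.86 and 5.69 (4.26-fold, adjusted p = 0.000158). Cemip/9930013L23Rik, 1 gene under different names that encodes a hyaluronan-degrading protein, was among the brightest clusters, with 16.72, 16.73 and 16.94 in LFBwt/wt and 14.71, 14.55 and 15.01 in LFBD/D (4.12-fold, adjusted p = 0.000181). Adam12/5830403F22Rik, with a membrane metalloproteinase, read 9.36, 9.46 and 9.69 against 7.81, 7.15 and 8.20 (3.44-fold, adjusted p = 0.00363). Loxl2/Mir6950/Gm21451/mmu-mir-6950, with a lysyl oxidase that crosslinks collagen, read 14.96, 14.94 and 15.09 against 13.49, 13.15 and 13.93 (2.78-fold, adjusted p = 0.00211). The LFBD/D arrays scattered more than the LFBwt/wt arrays in these last clusters, without reaching them. Of the 80 genes of a list of matrix genes, Loxl2 and Plod3 were the ones listed by a cluster of this kind, and Plod3/Mir702 did not pass.

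Complement C1s, the serine protease of the C1 complex, gave the most reproducible falls. C1s1/C1s read 13.89, 13.88 and 13.93 in LFBwt/wt and 12.14, 12.14 and 12.07 in LFBD/D (log2 difference -1.78, SE 0.05, 3.43-fold, adjusted p = 1.69e-05). C1s2/Gm5077 read 13.78, 13.88 and 13.86 against 12.24, 12.20 and 12.18 (3.10-fold, adjusted p = 2.77e-05). Arrays of one group differed by no more than 0.0978 in both, far less than the distance between the groups. Syne2/Mir5101, with the nuclear envelope protein nesprin-2, fell 3.93-fold (9.02, 9.50 and 9.72 against 7.64, 7.47 and 7.21, adjusted p = 0.000766). Pdgfra/Mir7025/mmu-mir-7025, with the receptor for PDGF that marks lung fibroblasts, read 15.58, 15.57 and 15.48 in LFBwt/wt and 14.69, 15.17 and 14.25 in LFBD/D (1.79-fold, adjusted p = 0.0361). LFBD/D array 2 was only 0.31 below the lowest LFBwt/wt array, and the call was lost without LFBD/D array 1 or without any one of the LFBwt/wt arrays (adjusted p up to 0.11).

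Single clusters of other families fell. Pcdhb21/Pcdhb22, protocadherins of the beta cluster, read 6.74, 6.79 and 6.56 in LFBwt/wt and 5.79, 5.75 and 5.56 in LFBD/D (2.00-fold, adjusted p = 0.000613), and the other protocadherin cluster had a log2 difference of -0.06. The cluster that lists Ugt1a2, Ugt1a6a, Ugt1a6b and 6 other genes of the Ugt1a locus, enzymes that glucuronidate bilirubin and drugs, read 8.75, 8.68 and 8.74 against 8.02, 7.79 and 7.82 (1.80-fold, adjusted p = 0.000611). The other Ugt cluster had a log2 difference of -0.12 at a level of 3.97, and none of the 11 Ugt genes with a cluster of their own passed. Their levels were 3.67 to 4.56, below the median of 4.9 under which no member passed, so they are no contrast to this fall. The inducible heat shock genes Hspa1b/Hspa1a fell 1.56-fold (8.86, 8.77 and 8.68 against 8.04, 8.17 and 8.18, adjusted p = 0.00137), and Hspa1a alone fell by 0.83. The other 4 of 5 clusters that list a symbol beginning with Hsp were above zero and did not pass. Of the 38 clusters with 1 such symbol, 5 were lower and 3 higher. In the remaining leading clusters Klkb1/Cyp4v3 was 1.62-fold higher (adjusted p = 0.00319), and the predicted genes Gm8096/Gm7901 and Gm10560/Gm16008 were lower at -0.89 (adjusted p = 0.0081) and -0.79 (adjusted p = 0.0011).

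The imprinted Dlk1-Dio3 domain on chromosome 12, whose noncoding RNAs are transcribed from the maternal allele and host many microRNAs, was read by 10 clusters of this kind. None was higher, 4 were lower and 9 had a log2 difference below zero, with a median of -0.50. Rian with 5 other small RNA symbols fell 3.01-fold but with a wide spread, 9.38, 9.58 and 10.03 in LFBwt/wt against 8.19, 7.20 and 8.84 in LFBD/D (adjusted p = 0.035). It no longer passed without LFBD/D array 1 or without any one of the LFBwt/wt arrays (adjusted p up to 0.119). Meg3/Mir770/Mir1906-1/Mir1906-2 read 8.14, 8.29 and 8.76 against 7.20, 6.60 and 7.40 (2.52-fold, adjusted p = 0.00956). Its listed genes include Mir1906-2 of the X chromosome, whose mature sequence has the same letters as that of Mir1906-1 above, and the own cluster of Mir1906-2 fell by 2.22 (adjusted p = 0.0118). Mir300/mmu-mir-300 read 7.50, 7.72 and 7.93 against 6.30, 6.30 and 6.78 (2.39-fold, adjusted p = 0.00259). The cluster of Mirg, Mir134, Mir377 and 8 other symbols fell 1.77-fold (adjusted p = 0.0209), with a highest adjusted p of 0.053 when LFBwt/wt array 2 or LFBD/D array 1, without which it did not pass, was left out. LFBwt/wt array 3 was the highest of its group in each of these 4 clusters. The clusters of the domain that did not pass ranged from -0.54 in Mir496a/Mir496 to 0.07 in Rtl1/Mir3071. Of 57 clusters in the domain with 1 symbol, 19 were lower, none was higher and 54 were below zero.

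Clusters that list microRNAs outside that domain fell in several places. Mir322/Mir351/Mir503/C430049B03Rik, an X-linked noncoding host of microRNAs of the cell cycle, read 7.11, 7.09 and 7.29 in LFBwt/wt and 5.89, 5.72 and 5.93 in LFBD/D (2.49-fold, adjusted p = 0.000228). Dnm3os/Mir214/Mir199a-2, a mesenchymal antisense RNA with its microRNAs, read 11.27, 11.38 and 11.40 against 10.32, 9.83 and 10.40 (2.24-fold, adjusted p = 0.00239). Mir145a/Mir145, 1 gene under different names known from smooth muscle, read 13.60, 13.51 and 14.16 against 11.69, 11.97 and 11.79 (3.83-fold, adjusted p = 0.000607). In these clusters the groups were at least 0.87 apart. Spaca6/Mir125a/Ncrna00085 fell 1.93-fold (10.57, 10.49 and 10.98 against 9.83, 9.82 and 9.54, adjusted p = 0.00522), so that both clusters with a microRNA of the seed CCCUGAG among those that passed were lower. Of the clusters with this seed that did not pass, Mir6394 had a log2 difference of 0.10 and Ahnak/Mir6367 of -0.27. The clusters with the seed GGAAAGG, Gucy1a3/Mir7010/mmu-mir-7010 and Mir7027/mmu-mir-7027, were lower at -0.62 (adjusted p = 0.0119) and -0.59 (adjusted p = 0.0054). The first lost its call without LFBwt/wt array 2, LFBwt/wt array 3 or LFBD/D array 1 (log2 difference -0.54 at the smallest) and the second without LFBwt/wt array 3 or LFBD/D array 3 (-0.51).

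The next 4 clusters, chosen after their values were seen, sat close to the threshold or within it. Ctdsp2/Mir26a-2/Mir546 read 13.58, 13.57 and 13.55 in LFBwt/wt and 12.57, 13.21 and 12.86 in LFBD/D (1.61-fold, adjusted p = 0.0217), and Mir22/Mir22hg fell 1.58-fold (9.86, 10.04 and 10.36 against 9.42, 9.63 and 9.23, adjusted p = 0.0259). The first lost its call without any 1 array other than LFBD/D array 2 (adjusted p up to 0.0743), and the second without any 1 array other than LFBwt/wt array 1 and LFBD/D array 2 (adjusted p up to 0.0752). Vmp1/Mir21a/Mir21, with a microRNA raised in many fibrotic tissues, had a log2 difference of -0.24 (adjusted p = 0.0648), and Mir155/Mir155hg one of -0.37 (adjusted p = 0.0116), both within 1.5-fold.

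On chromosome 2 an array of KRAB zinc finger genes, transcriptional repressors that have duplicated recently in the mouse, was read by 22 clusters with 21 different sets of values. The span was drawn around the clusters that passed, so its counts are a description. All 22 were below zero, from -0.84 to -0.40 with a median of -0.54, all had an adjusted p of 0.05 or less, and 10 also passed the fold threshold. Zfp970/Zfp971 read 14.38, 14.38 and 14.36 in LFBwt/wt and 13.57, 13.41 and 13.62 in LFBD/D (1.79-fold, adjusted p = 0.000436). Zfp967/Zfp966/Zfp971 had a log2 difference of -0.74 (adjusted p = 0.000553) and Gm14327/Zfp971 one of -0.71 (adjusted p = 0.000609). On each array the clusters moved by similar amounts, and many list the same genes, so that 22 clusters are not 22 readings. The own cluster of Zfp971 was lower at -0.54 (adjusted p = 0.00121), within 1.5-fold, and of 29 clusters of the span with 1 symbol 5 were lower, none was higher and 27 were below zero.

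Of a list of 60 established ATF4 target genes, 1 was listed by a cluster of this kind. Exosc6/Aars pairs a subunit of the RNA exosome with the neighbouring alanyl-tRNA synthetase, an enzyme that charges tRNA. It read 10.08, 10.04 and 10.18 in LFBwt/wt and 8.99, 8.73 and 8.93 in LFBD/D, all LFBD/D arrays being more than 1 below the LFBwt/wt arrays (log2 difference -1.21, SE 0.08, 2.32-fold, adjusted p = 0.000264). Since ATF4 is known to bind a composite element with C/EBP proteins, the letters TGATGNAA were searched on both strands in the RefSeq promoters, from 250 bases before to 50 after each gene's start. They occurred in 4.51% of 27025 promoters (1219), in 5.75% of the 1721 promoters of genes listed by members, and in 5 of 59 and 4 of 61 promoters of genes listed by higher and by lower clusters. A match is a description of the letters only.

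Clusters with metabolic genes were found both among the rises and among the falls. Azin2/Adc, 1 gene that encodes an antizyme inhibitor of polyamine metabolism, read 10.14, 10.10 and 10.25 in LFBwt/wt and 8.75, 8.79 and 8.80 in LFBD/D (2.61-fold lower, adjusted p = 8.68e-05). Sms/Sms-ps, with spermine synthase, was 2.03-fold higher (6.70, 6.68 and 6.69 against 7.64, 7.53 and 7.96, adjusted p = 0.00125), and Sms-ps alone rose by 0.86. Ass1/Gm5424, with the argininosuccinate synthase of the urea cycle, rose 1.56-fold (adjusted p = 0.0115) but not without LFBwt/wt array 2 or LFBD/D array 2 (adjusted p up to 0.0508), and its pseudogene Gm5424 alone rose by 0.75. Ferritin light chain was listed by Ftl1/Mir692-2b, among the brightest clusters with 16.81, 16.62 and 16.66 in LFBwt/wt and 17.42, 17.20 and 17.28 in LFBD/D (1.52-fold, adjusted p = 0.0035). It lost its call without LFBwt/wt array 2 or LFBD/D array 1 (log2 difference 0.54 at the lowest), and the own cluster of Ftl1 was higher at 0.49, within 1.5-fold.

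Clusters of the translation and ribosome machinery moved little. The 46 clusters classed as ribosomal protein genes were above zero in 43, with a median log2 difference of 0.20, and 13 of them had an adjusted p of 0.05 or less, but none reached 1.5-fold. The one with the smallest p, Rpl32/Rpl32l, had a log2 difference of 0.37 (adjusted p = 0.0057). Of 37 clusters with small nucleolar RNAs, Nop56/Snord57, with a core protein of box C/D particles, was the one that passed (10.94, 10.86 and 10.90 against 11.81, 11.52 and 11.40, 1.6-fold, adjusted p = 0.00608), though not without LFBD/D array 1 (log2 difference 0.56). Clusters that list a Snord or Snora gene had a median of 0.09, whereas 61 of the 67 clusters with a single such gene were below zero (median -0.29). Sap18b/Sap18, a subunit of splicing and deacetylase complexes, rose 2.01-fold (13.92, 14.13 and 13.68 against 14.98, 14.79 and 14.99, adjusted p = 0.002). In the classes without a cluster that passed, the smallest p belonged to a histone H4 cluster of H4c4, H4c17, H4c2 and 10 other genes (log2 difference 0.49, adjusted p = 0.00191), to the vomeronasal receptors Vmn1r251/Vmn1r241 (0.33, adjusted p = 0.0166) and to the keratin-associated Krtap6-1/Gm10228/1110025L11Rik (0.17, adjusted p = 0.226).

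A listed gene often had a cluster of its own elsewhere on the array, which gives a second reading. Where that cluster lies on another chromosome, as for Mir8115, it may read another locus. This was so for 547 of the 2168 members, in 785 pairs of a member and a gene. Of the 122 clusters that passed, 25 had such a gene, in 26 pairs. In 12 of these pairs the own cluster passed in the same direction, in 14 it did not pass, and in none did it pass in the opposite direction. The 14 are not separate readings, because several share the own cluster of Zfp971 and others that of Ftl1. The own clusters of Zfp971 (log2 difference -0.54), Ftl1 (0.49), Gm21399 (0.34), Gm8096 (-0.27) and Trav14d-3-dv8 (0.44) had the sign of their members. They passed the adjusted p threshold (0.00121 to 0.0272) and missed only the fold threshold. Those of Mir8115 (-0.60), Mir3962 (0.00) and Mir100hg (-0.22) did not pass the former (0.0606 to 0.986). Pirb, Bcl2a1a, Gvin1, 9930111J21Rik2, Sms-ps and Hspa1a were among the 12. In 19 pairs the member did not pass but the gene alone did. Mir142b/Mir142 had a log2 difference of 0.25 (adjusted p = 0.31), whereas Mir142, a microRNA of blood cells, rose by 1.58 in its own cluster (adjusted p = 0.00473). Lrrc4c/Palld had one of 0.01 (adjusted p = 0.976), whereas Palld, an actin-binding protein, was lower in its own at -0.82 (adjusted p = 0.0144). Gm13293/Gm13291 had one of -0.35 (adjusted p = 0.0614) against -1.28 for Gm13293 alone (adjusted p = 0.000135). For 97 of the 122 no listed gene had a cluster of its own. Of these, 25 name 1 gene under several names, and for the other 72 which of the listed genes moved was not measured.

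**Figure D5:**
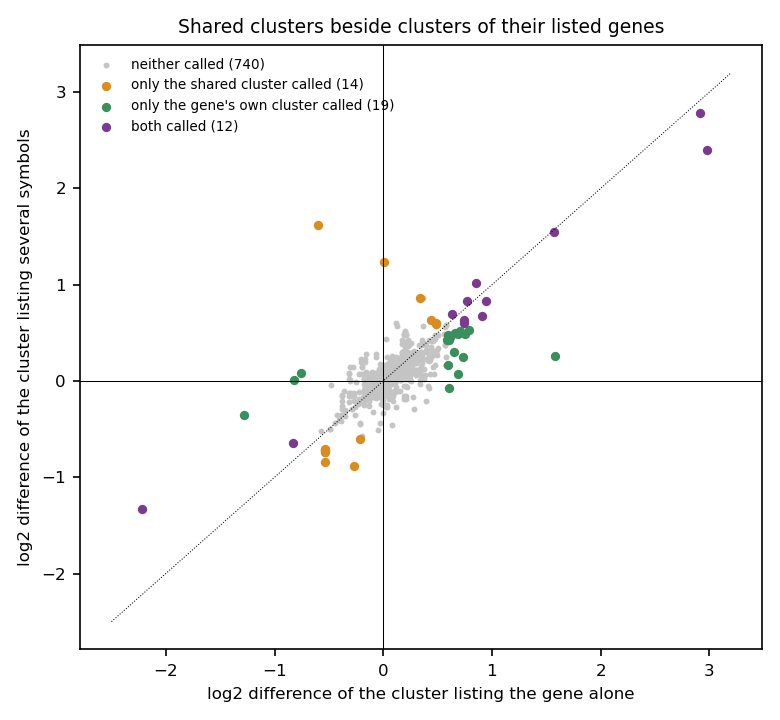
Log2 difference (LFBD/D minus LFBwt/wt) of the cluster that lists several symbols (vertical axis) against that of the own cluster of a listed gene (horizontal axis), 1 point per pair, 785 pairs, with a dotted line of equal differences. In 12 pairs both passed, always in the same direction, in 14 only the member and in 19 only the own cluster passed, and 740 pairs in grey had neither.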

How the data were processed

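Total RNA of 6 lung fibroblast cultures was labelled with biotin and hybridised to Clariom D mouse arrays. The deposited values are log2 expression per transcript cluster, which the authors made from the array intensities by RMA (background correction, quantile normalisation, summarisation) in the Transcriptome Analysis Console; which annotation version and genome build were used is not given in the sources used here. A change in total RNA is lost in quantile normalisation, and 3 arrays per group set the precision. Genes came from the platform table paired with the arrays; symbols were updated through RefSeq (GRCm38.p6), and 9 older symbols were not used because their gene lies on another chromosome than the cluster. A further 8 rows that only repeat 1 symbol were not members.

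All 65956 clusters were fitted together with limma 3.58.1 (lmFit and eBayes, two-sided) in R 4.3.3, with Benjamini-Hochberg adjustment over all of them. A cluster passed at an adjusted p of 0.05 or less and a change above 1.5-fold, the thresholds of the study. The fit was tested on simulated data. The alternatives were Student's t-test, moderated tests with a trend, a test against 1.5-fold, stricter thresholds, a filter on dim clusters, median centring, a replicate block, only clusters of several different genes, and each array left out.

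Clusters were named by rule: the 12 largest rises and falls that passed at or above the median level, up to 3 leading clusters per class (1 where none passed), and those that passed and list an ATF4 target, matrix gene or cell type marker. Members and lists were chosen with earlier results of these data known. Columns of other samples numbered 0, and no columns of the authors' own comparisons were used. The promoter match of 1 gene is not reported here.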

Additional observations from a re-analysis of the deposited data

How the results depend on the processing

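With Student's t-test 78 members passed (41 higher, 37 lower), with a test against 1.5-fold 35 (25 and 10), and above 2-fold 50 (34 and 16), in place of 122 (63 and 59); all of these were among the 122. The count at an adjusted p of 0.01 was 103, with trend and robust settings or without dim clusters 122, with arrays centred on their medians 124 (119 of the 122 among them). Leaving out 1 array gave 106 to 130 members that passed, 59 to 71 higher and 46 to 59 lower, and 33 of the 122 lost their call without at least 1 array, with no change of sign. The number of members with an own cluster that passed in the same direction, an alternative added after seeing the data, was 11, and 6 with Student's t-test, 3 with the test against 1.5-fold, 4 above 2-fold, 7 at an adjusted p of 0.01 and 7 to 14 with 1 array left out (7 without LFBwt/wt array 3). The median log2 difference of 0.02 was 0.028 after centring, 0.0262 over members of several different genes, and 0.0061 (without LFBD/D array 2) to 0.0204 with 1 array left out. Of the 47 members named by rule none changed sign. Of these 47, 11 lost their call with Student's t-test (the clusters of Adam12, Chil3, Gm8096, Ifi203, Klkb1, Loxl2, Meg3, Nop56, Pdgfra, Rian and Trav14d-3-dv8), 18 with the test against 1.5-fold (these 11 among them), 13 above 2-fold and 4 at an adjusted p of 0.01.

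Same-numbered arrays did not deviate together (correlations -0.04, -0.01 and -0.22), so no pairing by number was visible. With 3 arrays per group this cannot exclude that cultures were prepared in pairs. With the replicate number as a block 120 of the 122 passed. Of the 122 calls, 23 were lost without LFBD/D array 1 and 19 without LFBwt/wt array 3. Without clusters below the median level, 1318 members were tested.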
